A study of Drosophila melanogaster with 2 samples.

Results

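The genes described here code for subunits of Mediator and of the general transcription factor TFIID. They are the 40 protein-coding genes whose Ensembl name starts with MED or Taf followed by a digit, 25 MED genes and 15 Taf genes out of 13945 protein-coding genes on the 6 major chromosome arms. The rule reads gene names and no measured value, although the group was picked with earlier results of these data known. The pattern leaves out Mediator subunits that carry other names (kto, skd, CycC, Cdk8 and ix) and Tbp, which are described as separate lists. It also leaves out TAF1B and TAF1C-like, which are spelled in capitals. In human, TAF1B belongs to a factor of RNA polymerase I.

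The values come from chromatin immunoprecipitation and sequencing of whole Drosophila melanogaster embryos of strain luna-MiMIC-GFP, males and females pooled, aged 0 to 24 h. An eGFP exon placed in an intron of luna makes the gene produce a GFP-tagged Luna protein, a zinc finger factor of the KLF family, and an antibody to GFP recovered the DNA bound to it. There was 1 group of 2 biological replicates, and every embryo carried the tagged gene, so the data hold no contrast between conditions and no test between groups was possible. The samples mix all tissues and all stages of embryogenesis, come from 1 transgenic line, and do not show in which cells the protein sat at a promoter. An embryo group without the tag was not analysed here.

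Mediator is a large complex that passes signals from DNA-bound transcription factors to RNA polymerase II. Its subunits are grouped, from work in yeast and human, into a head and a middle that contact the polymerase, a tail that contacts activators, and a kinase module that binds reversibly. TFIID, made of the TATA-binding protein and the TBP-associated factors (TAFs), recognises the core promoter and starts the assembly of the preinitiation complex. Many of its TAFs pair through a histone fold. Both complexes are needed broadly for transcription by RNA polymerase II.

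A threshold on the irreproducible discovery rate (IDR), a measure of how alike replicates rank their peaks, gave the IDR list. In it 8 of the 40 genes had a summit within 500 bp of an annotated transcription start site (TSS). They were MED4, MED6, MED7, MED16, MED27 and MED30 among the Mediator genes and Taf4 and Taf7 among the TFIID genes. The share was 20% (95% Wilson interval 10.5 to 34.8), beside 10.7% of all protein-coding genes, a value that lies inside the interval. By family it was 6 of 25 MED genes, or 24.0% (11.5 to 43.4), and 2 of 15 Taf genes, or 13.3% (3.74 to 37.9). The intervals cover counting error only, and genes are not replicates of a condition. The count of 2 Taf genes fell to 1, Taf4, when the strongest 1696 candidates of either replicate alone replaced the IDR list of 1696 peaks.

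Below that threshold summits were far more common. The pooled candidate list, which holds 21725 peaks and reaches much weaker ones, had a promoter summit at 30 of the 40 genes, or 75.0% (59.8 to 85.8), beside 45.9% of all protein-coding genes. Replicate 1 had one at 30 genes, beside 47.1% of all, and replicate 2 at 29 genes, or 72.5% (57.2 to 83.9), beside 51.9%. In both replicates a candidate was present at 24 genes, or 60.0% (44.6 to 73.7), beside 36.7%. In these 4 counts the share of all genes lay below the interval of the members. Taf genes had a pooled candidate in 13 of 15 cases and MED genes in 17 of 25, intervals of 62.1 to 96.3 and 48.4 to 82.8 that overlap. The 30 genes shared 29 peaks, since Taf10 and Taf10b start 45 bp apart in opposite directions and took the same one.

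**Figure D1:**
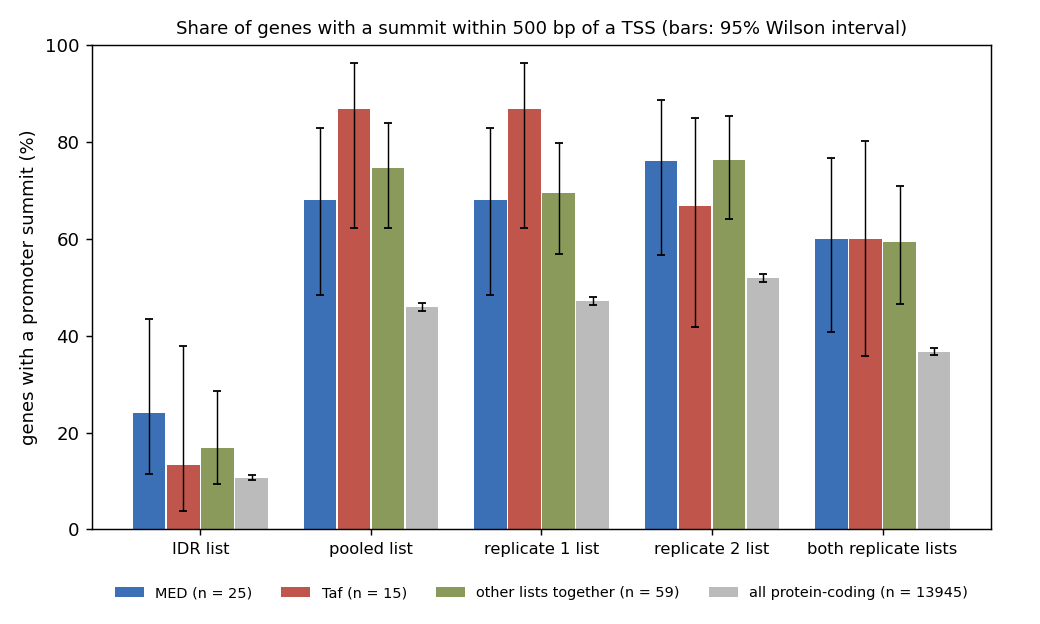
The bars give the percentage of genes with a summit within 500 bp of a TSS in each peak list, for the 25 MED genes, the 15 Taf genes, 59 other genes of the transcription machinery and all 13945 protein-coding genes, with 95% Wilson intervals. In the IDR list the interval of the MED genes starts at 11.5 and that of the Taf genes spans the 10.7% of all genes, while in the pooled list both families lie above 45.9%.

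Many of these genes share their promoter region with a gene transcribed the other way. A protein-coding TSS on the opposite strand lay within 500 bp upstream of any TSS for 26 of the 40 genes. That was 65.0%, beside 27.4% of all protein-coding genes. At MED6 and Taf7 the TSS of the member was an internal one, and the opposite gene started downstream of the member's outermost TSS. Among all genes with such a head-to-head partner 22.3% had a promoter IDR summit, against 6.34% of those without. Of the 26 members with a partner 6 had one, or 23.1% (11 to 42.1), and of the 14 without a partner 2 had one, or 14.3% (4.01 to 39.9). The share of members with a partner was thus close to that of all genes in the same arrangement. In the pooled list 20 of 26 members with a partner had a candidate, or 76.9%, beside 70.2% of all such genes. Without a partner it was 10 of 14, or 71.4%, beside 36.7%. The part of the arrangement in the members' counts was not tested.

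**Figure D2:**
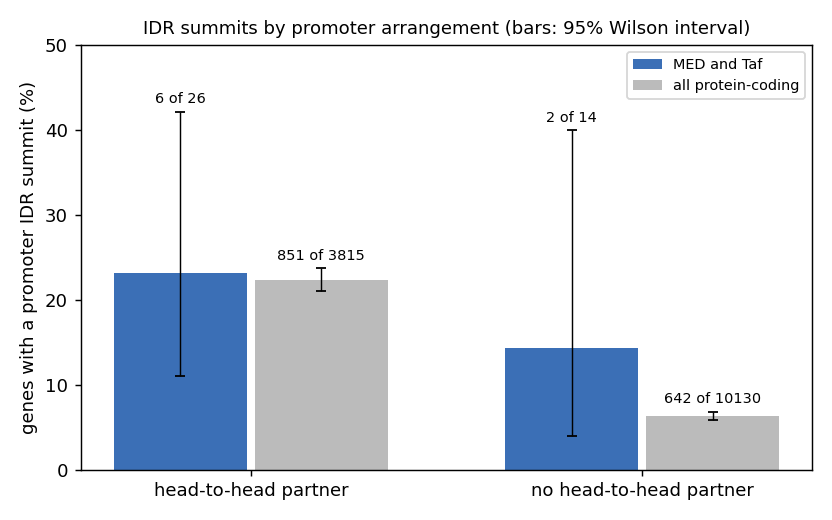
The bars give the percentage of genes with a promoter IDR summit, with 95% Wilson intervals, for genes with and without a head-to-head protein-coding partner within 500 bp. With a partner the 40 members (23.1%) and all protein-coding genes (22.3%) have almost the same share, and without one the members' interval of 4.01 to 39.9 includes the 6.34% of all genes.

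The strongest summit lay between MED30 and Rev1. MED30, a subunit of metazoan Mediator, had a signal of 132 and rank 154 of 1696. Signals are scores given by the authors on an unstated scale, so only ranks within a list are compared. Among 30000 candidates, replicate 1 placed it at rank 303 (signal 48.6) and replicate 2 at rank 111 (signal 80.5). Both replicates thus placed it among their strongest, and their summits were 13 bp apart. The pooled summit was 164 bp upstream of the MED30 TSS and 110 bp upstream of that of Rev1, which codes for a translesion DNA polymerase, so Rev1 was the nearer start.

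Taf4 came next, with a signal of 94.0 and rank 361. Taf4 is a histone-fold subunit on which the core of TFIID depends. Replicate 1 placed its candidate at rank 272 (signal 50.7) and replicate 2 at rank 637 (signal 40.9), with summits 30 bp apart. The summit lay 69 bp upstream of an internal TSS, in an intron of the longer transcripts and 509 bp downstream of the outermost TSS. No TSS of another gene was found within 500 bp, so Taf4 was the sole gene to which this peak could be assigned at that distance.

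MED4, of the middle module, had a signal of 80.5 and rank 505. It was the most even of the strong peaks, at rank 514 (signal 38.0) in replicate 1 and rank 432 (signal 48.6) in replicate 2. The summit was 146 bp upstream of the MED4 TSS, in an exon of the antisense non-coding gene asRNA:CR43470 and 33 bp downstream of its start. Peak lists carry no strand, so the summit cannot be given to one of these genes.

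The sequences around the summits are shown for MED30, Taf4, MED4, MED27 and Taf7, 5 of the 8 members with an IDR summit. They show where TGGCAAC and CGATA stand in the printed bases. Each is what remains of the summit and 100 bp on either side of it once annotated UTRs are left out, read 5′ to 3′ on the strand of the named gene from the RefSeq copy of Release 6, which has the coordinates of dm6. The whole window at MED6 is UTR and is not printed. Capitals mark TGGCAAC and CGATA on either strand, and the capitals at MED27 are CGATA read on the opposite strand. This is a single copy and not the CGATA pair counted below. The pair counted at Taf7 is not in its printed stretch. Other words counted below are not marked. The window of MED30 is chr3L:654153-654353, that of Taf4 chr3L:16113621-16113789, that of MED4 chr3L:7250573-7250717, that of MED27 chr3R:5654919-5655119 and that of Taf7 chr3R:7907498-7907561. MED30 and MED4 lie on the minus strand and the others on the plus strand.
MED30: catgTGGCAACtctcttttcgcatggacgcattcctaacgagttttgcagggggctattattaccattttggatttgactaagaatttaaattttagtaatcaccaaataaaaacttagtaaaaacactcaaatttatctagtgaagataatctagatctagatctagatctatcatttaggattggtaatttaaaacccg
Taf4: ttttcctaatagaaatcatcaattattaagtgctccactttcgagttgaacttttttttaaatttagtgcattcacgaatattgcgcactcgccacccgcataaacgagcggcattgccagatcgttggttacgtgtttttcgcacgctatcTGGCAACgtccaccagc
MED4: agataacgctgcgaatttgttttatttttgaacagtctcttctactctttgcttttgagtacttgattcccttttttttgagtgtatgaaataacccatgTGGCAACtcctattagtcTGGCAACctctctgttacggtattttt
MED27: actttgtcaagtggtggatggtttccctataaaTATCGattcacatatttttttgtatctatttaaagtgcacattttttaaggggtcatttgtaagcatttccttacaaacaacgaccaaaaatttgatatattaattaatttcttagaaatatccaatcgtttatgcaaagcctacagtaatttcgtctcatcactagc
Taf7: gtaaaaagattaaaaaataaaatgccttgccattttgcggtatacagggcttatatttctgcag

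The word TGGCAAC stands in the windows of the 3 strongest members, once at MED30 and Taf4 and at 2 places at MED4, each time on the strand of the gene and 55 to 93 bp from the summit. It was picked after these sequences were read, so its presence at these genes supports nothing by itself. Among all 1696 IDR windows 139, or 8.20%, held it on either strand, beside 8.64% of all protein-coding promoters in windows of the same length that end at a TSS. The 5 remaining members with an IDR summit did not hold it. The words CACACCC and also CACGCCC, which KLF factors bind, were in 0 of the 8 member windows, beside 2.42% of all IDR windows. Only these exact words were searched, so shorter or other KLF sites were not counted.

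MED6, of the head module, had a signal of 64.4 and rank 857, with ranks of 1054 and 1104 and signals of 27.4 and 32.6 in replicates 1 and 2. This was the closest match between replicates among the 8 genes, and the replicate summits were 16 bp apart. MED6 has 5 annotated TSSs, and the summit lay 13 bp upstream of the most internal one, inside the 5′ UTR of longer transcripts. It was 6 bp upstream of the TSS of Naa80, an N-terminal acetyltransferase gene that runs the other way.

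MED27, a metazoan subunit, had a signal of 54.1 and rank 1224, and here the replicates differed. Its rank was 634 (signal 41.0) in replicate 2 and 3624 (signal 15.8) in replicate 1, a 5.72-fold difference in rank. Replicate 1 alone would not place it among its strongest 1696. The summit was 120 bp upstream of MED27 and 158 bp upstream of elm.

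The remaining 3 stood near the end of the IDR list, whose weakest signal was 46.4. MED16, a tail subunit, had 49.9 and rank 1457, with ranks of 1203 and 2088 in replicates 1 and 2 and signals of 25.8 and 24.9. Taf7, which binds Taf1 within TFIID, had 49.4 and rank 1483, with ranks of 1923 and 2210 and signals of 20.6 and 24.3. The Taf7 peak was outside the strongest 1696 of both replicates. Like every peak of the IDR list, it was among the 1696 strongest pooled candidates. MED7, of the middle module, had 48.0 and rank 1581, with ranks of 2282 and 1391 and signals of 19.0 and 29.7. The summit at MED16 was 20 bp upstream, that at MED7 8 bp upstream and that at Taf7 122 bp upstream of the nearest TSS of the gene. The head-to-head neighbours CG11170, Cap-H2, a condensin II gene, and EMC1, a gene of the ER membrane protein complex, were further off, at 239, 270 and 153 bp.

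Of the 8 genes, 4 (MED30, Taf4, MED4 and MED6) ranked within the strongest 1696 in both replicates, 3 (MED27, MED16 and MED7) in 1 of them and Taf7 in none. Among the 848 strongest peaks of the list lay 3 of the 8, or 37.5%, beside 54.1% of all 1493 protein-coding genes with a promoter IDR summit. For 5 of the 8 genes the nearest TSS was their own, or 62.5%, beside 70.5% of those 1493 genes.

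The genes just below the threshold split by replicate. The 6 members with pooled ranks between 1697 and 3392 were MED23 (rank 1827), MED31 (1944), MED10 (2188), MED17 (2286), Taf1 (2390) and MED21 (2813). They made up 15.0% of the members, beside 7.91% of all protein-coding genes in the same range of ranks. MED31, a small middle subunit, was at rank 860 (signal 30.3) in replicate 1 and 7901 (signal 14.1) in replicate 2, a 9.19-fold difference in rank. MED23, a tail subunit, ranked 866 with 30.2 and 6008 with 15.8. MED17, a central head subunit, ranked 1263 with 25.1 and 5847 with 16.0, and MED21, of the middle, 1541 with 22.9 and 5413 with 16.5. All 4 were thus within the strongest 1696 of replicate 1 and well outside those of replicate 2. MED10, of the middle, with 3441 and 2632, and Taf1, the largest TFIID subunit, with 1919 and 2232, ranked more alike.

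**Figure D3:**
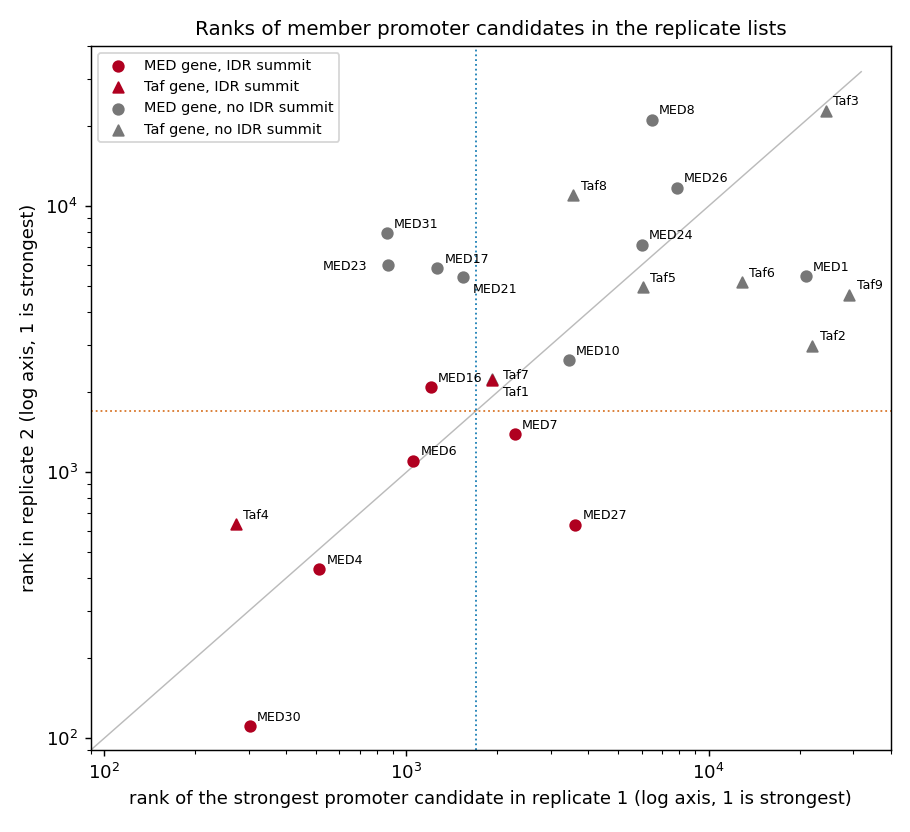
Each point is 1 of the 24 members with a promoter candidate in both replicates, at its rank in replicate 1 and in replicate 2 on log axes, where 1 is the strongest of 30000. Dotted lines stand at rank 1696, red marks genes with an IDR summit, and Taf1 and Taf7 lie almost on each other. MED31, MED23, MED17 and MED21 form a group left of the vertical line and above the horizontal one, while MED30, MED4 and Taf4 are near the top ranks of both.

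Over the 24 members with a candidate in both replicates the larger rank was a median of 2.42 times the smaller, beside 1.96 over 5112 protein-coding genes, and 11 of the 24, or 45.8%, were within 2-fold, beside 51.3%. The rank was better in replicate 1 for 13 and in replicate 2 for 11, so neither replicate was favoured throughout. The strongest summits were within 100 bp of each other at 19 of 24 genes, or 79.2%, beside 59.9%. The exceptions were MED1, MED26, Taf2, Taf3 and Taf6, and this compares the strongest summit of each replicate alone. At Taf6 replicate 1 had its strongest summit 458 bp downstream of the TSS and replicate 2 had its own 298 bp upstream. Replicate 1 also had a weaker summit 274 bp upstream of Taf6. At Taf3 and MED26 replicate 2 likewise had a weaker summit near that of replicate 1. These lay 88 against 121 bp upstream of the Taf3 TSS and 63 against 75 bp upstream of a MED26 TSS. The strongest MED26 summit of replicate 2 belonged to another TSS.

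The other TFIID genes had weaker candidates. Taf8 was at pooled rank 3950 and Taf5, a WD40-repeat subunit, at 4453, with ranks of 6044 and 4948 in the replicates. Taf2, which contacts the initiator, was at 5080, with rank 22052 in replicate 1 and 2984 in replicate 2. Taf9 was at 6193, with 29258 and 4646. The Taf10 and Taf10b pair was at 5378, with rank 4117 in replicate 1 and no candidate in replicate 2. Taf6, Taf13, Taf3 and Taf12 followed at 6280, 10709, 12715 and 18247. For Taf12 and Taf13 replicate 2 had no candidate either. Taf12L, a paralog of Taf12, had a single candidate, at rank 20291 in replicate 2.

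The Mediator genes with weaker candidates were MED24 at pooled rank 5087, MED9 at 5922, MED26 at 6494, MED1 at 8346, MED8 at 14796 and MED20 at 14895. MED20 lies 47 bp head to head from Trf, which codes for a TBP-related factor. Both took the same pooled candidate, which is therefore also counted among the other genes of the machinery below. MED14, the backbone subunit, MED19 and MED25 had no pooled candidate within 500 bp of a TSS and had a promoter candidate in a single replicate, with best ranks of 23769 in replicate 2, 14835 in replicate 1 and 11387 in replicate 2. MED15 had a single candidate within 500 bp, in replicate 1 at rank 2168 and 304 bp upstream. No candidate at all was found within 500 bp of a TSS of MED11, MED18, MED22, MED28 or Taf11 in any of the 4 lists. A list cut at 30000 candidates does not show that the fusion protein was absent there, and depth is unknown.

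By module, from assignments made in yeast and human, an IDR summit was found at 1 of 7 head, 2 of 9 middle and 1 of 5 tail genes. It was found at 2 of the 3 genes grouped here as metazoan subunits (MED27, MED28 and MED30), and not at MED14. A pooled candidate was found at 4 head, 8 middle and 3 tail genes and 2 of that metazoan group. Among TFIID genes the histone-fold TAFs had an IDR summit in 1 of 11 cases and a pooled candidate in 9, and the other TAFs had 1 and 4 of 4. Over all protein-coding genes the shares were 10.7% in the IDR list and 45.9% in the pooled list. The counts by module are too small to set one module apart from another.

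The summits at these genes lay close to and mostly upstream of the TSS. In the IDR list all 8 were upstream of the nearest TSS of the gene, at a median of 94.5 bp and at most 164 bp, beside 86.4% upstream and a median of 109 bp over all genes with an IDR summit. The side depends on the TSS taken, since 3 of the 8 summits, at MED6, Taf4 and Taf7, were downstream of the outermost TSS. In the pooled list 26 of 30 were upstream, or 86.7%, beside 69.1% of all genes with a candidate, and 24, or 80.0%, lay in the 200 bp upstream, beside 45.8%. The median was 62.5 bp upstream, beside 68 bp. The clear exception among the better ranked genes was MED23, with summits 127, 92 and 121 bp downstream in the pooled list and replicates 1 and 2.

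**Figure D4:**
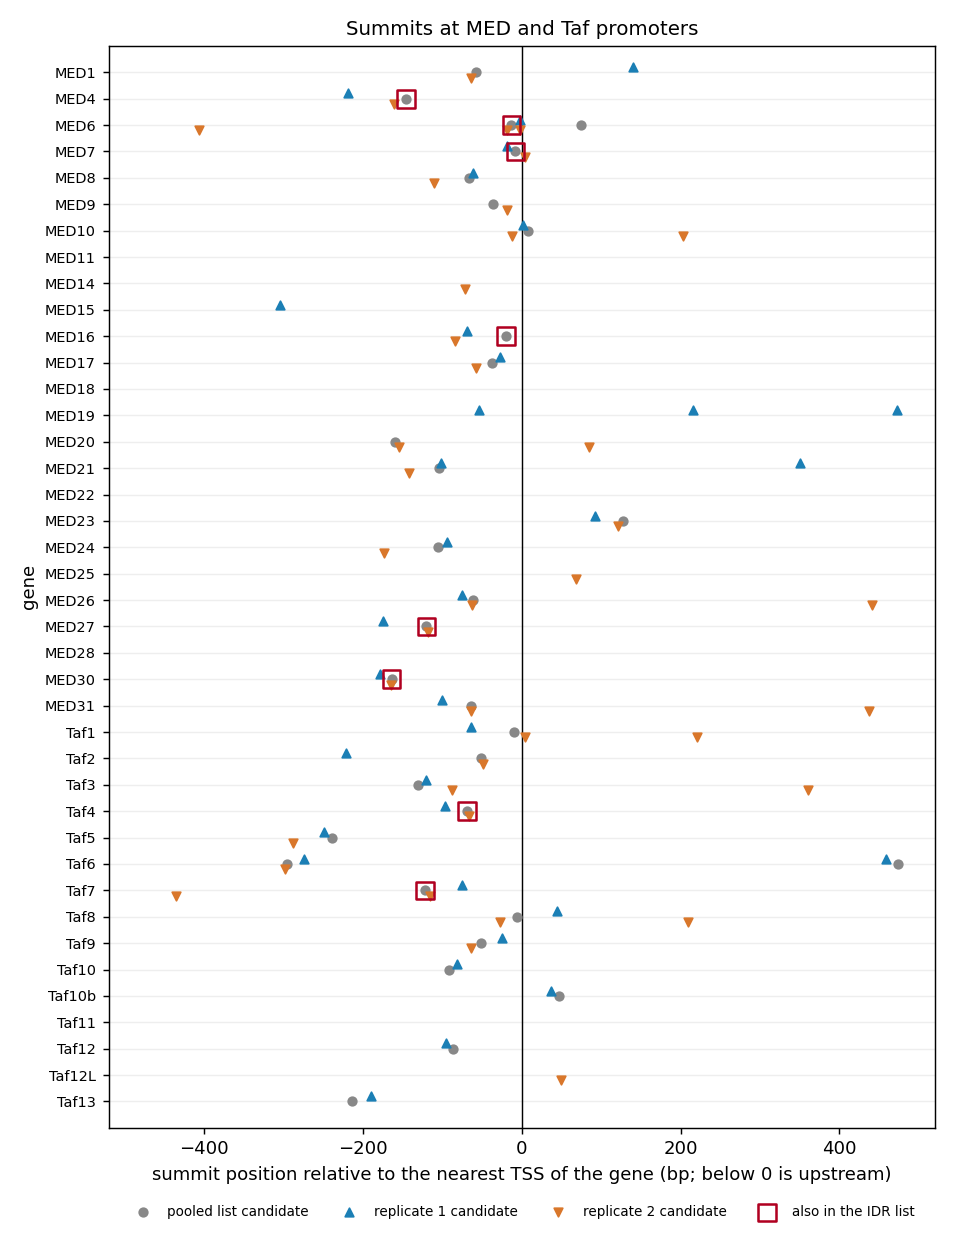
Every summit within 500 bp of a TSS of the 40 genes is drawn at its distance from the nearest TSS of that gene, for the pooled list and both replicates, with squares around those in the IDR list. Most marks lie within 200 bp upstream, MED23 stands apart downstream, and the rows of MED11, MED18, MED22, MED28 and Taf11 are empty.

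Elements of housekeeping promoters were present at some of these genes. In promoter windows that end at a TSS, TATCGATA, the site of the replication-related factor Dref, was found at 9 of 40 members, or 22.5%, beside 8.20% of all protein-coding promoters. These were MED7, MED8, MED9, MED17, MED18, MED25, MED26, MED28 and Taf3. MED7 was the sole one with an IDR summit, 1 of 9 or 11.1%, beside 19.6% of all genes with the element. Of the 31 members without it 7 had one, or 22.6%, beside 9.91% of all such genes. The count among the 9 is a single gene, and no test of these shares was run. Around the 8 IDR summits themselves TATCGATA was in 0 windows, beside 7.02% of all 1696, and 8 windows are too few to read a difference from that share.

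CGATA elements, which BEAF-32, a boundary factor, binds in clusters, occurred at least 2 times in 16 of 40 member promoters, or 40.0%, beside 20.5%, and in the summit window of Taf7 alone among the 8 genes, beside 17.5% of IDR windows. TATCGATA holds a CGATA on each strand, so every promoter with the first counts for the second. The site GGTCACACT of the promoter factor M1BP was in the promoters of MED10 and MED11, beside 3.31% of all promoters. TATAAA on the strand of the gene was in 10 promoters, or 25.0%, beside 30.4%, and at the IDR summits in the window of MED27 alone. The initiator words (TCAGTT and also TCATTC and also TCAGTC) were in 5 promoters, or 12.5%, beside 21.3%, and in the summit window of MED6. The promoter windows end at a TSS, so a word that runs across that TSS was not counted. These shares therefore do not compare initiators at the start itself. The Sp-type GGGCGG was in the promoter of MED22 and in no IDR window of a member. The KLF words were in 0 of 40 member promoters, beside 3.62% of all. A match is a run of letters and does not show that a factor bound there.

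The rest of the machinery had promoter summits at similar rates. Of 59 genes in lists of other Mediator, TFIID, general factor, polymerase and SAGA subunits, 10 had an IDR summit, or 16.9% (9.48 to 28.5), and 44 a pooled candidate, or 74.6% (62.2 to 83.9). Among the Mediator subunits with other names it was 1 of 5, skd, the MED13 of the kinase module, with a signal of 70.8 and rank 688. That summit was 446 bp upstream of skd and 35 bp from the TSS of Pdss2. Tbp had a pooled candidate and no IDR summit. None of the 4 testis paralogs of TFIID subunits that were matched (nht, can, sa and mia) had a promoter summit in the IDR or pooled list. Of these, sa had a candidate in replicate 1 alone and mia in replicate 2 alone. Another symbol of that list, rye, was not matched.

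General transcription factors had an IDR summit in 6 of 21 cases, or 28.6% (13.8 to 50), beside 10.7% of all protein-coding genes. These were the TFIIH genes Ssl1 with a signal of 319, Tfb1 with 54.7, mrn with 51.7 and the kinase gene Cdk7 with 53.6, and the TFIIA genes TfIIA-S with 81.4 and TfIIA-L with 76.0. The third TFIIA gene, TfIIA-S-2, had no promoter candidate in any list. The peak of Ssl1 ranked 19 of 1696, above any MED or Taf gene, but lay 98 bp from the TSS of Chro and 203 bp from that of Ssl1. For TfIIA-L and Cdk7 another gene was nearer too, with pll at 29 bp against 219 bp and snf at 82 bp against 177 bp. The peak of TfIIA-S lay 26 bp upstream and had no other TSS within 500 bp. RNA polymerase II genes had 2 of 12, Polr2F with 106 and Polr2H with 105, and the SAGA complex 1 of 16, the histone acetyltransferase gene Gcn5 with 100.4. The summit of Polr2H was 7 bp from the TSS of CG11247 and 133 bp from its own. These peaks stood at ranks 273, 279 and 311, between those of MED30 and Taf4.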

How the data were processed

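The starting points were 4 peak lists in dm6: the IDR list (1696 peaks), the pooled candidates (21725) and 1 list per replicate (30000 each). Per the deposited README texts, candidates were derived from alignments with a control file. Each peak has a signal score and a summit offset, as the authors deposited them, and the scale of the score is not stated. Which aligner and which caller made the lists, and at what IDR threshold, is not given in the sources used here. IDR peaks were the 1696 strongest pooled candidates. Read counts were not used, so depth is unknown, and the dm3 lists were left out.

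Genes and TSSs came from Ensembl release 115 (BDGP6.54, dm6 coordinates) without transposable elements, and other names from RefSeq synonyms. A gene had a promoter summit when a summit lay within 500 bp of any of its TSSs, and the strongest was taken. Motifs were matched in windows of 100 bp on either side of a summit and windows of equal length upstream of TSSs, on both strands except TATAAA and the initiator words. Counts, with Wilson 95% intervals, are set beside all protein-coding genes, and no test was run. Named genes are all members, and genes of the other lists with an IDR summit. Assignment was tested on simulated data. Python 3.11.15, pandas 2.3.3 and scipy 1.17.1 were used. The members, modules and lists were chosen with earlier results of these data known. Of the symbols in those lists, rye and RpII215 were not matched by name or synonym. The testis list thus held 4 of its 5 symbols, and whether rye is a member under another name was not settled. The polymerase list still held 12 genes, Polr2A to Polr2L. Alternatives were distance, overlap, list, replicate, TSS and window.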

Additional observations from a re-analysis of the deposited data

How the results depend on the processing

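Of 62 alternative values, 47 stayed near the main one, meaning within 1.5 times of it, and 15 moved. The label compares values and not which genes gave them. A word found in 0 main windows could not change in the narrower windows, which lie inside the main ones. The count of 8 genes with an IDR summit ranged from 6 to 9 when 1 replicate was left out. Without replicate 1 it was 6, all among the 8, and without replicate 2 it was 9, of which 5 were among the 8 and MED17, MED21, MED23 and MED31 were gained. The 848 strongest IDR peaks left 3 genes, 2 MED and 1 Taf, beside 5.79% of all protein-coding genes. With the outermost TSS alone 6 genes remained, 5 MED and 1 Taf, and Taf4 and MED6 were lost. Leaving out either replicate gave 1 Taf gene. The fall among the 848 follows from fewer peaks, and for the others the cause was not tested. The median summit position was 62.5 bp upstream among pooled candidates, in which 30 genes enter, against 94.5 bp. In windows narrowed to 50 bp either side, 0 held TGGCAAC, and likewise 0 held the CGATA pair, the initiator words or TATAAA. In windows 1000 bp to the right, 0 held the CGATA pair or the word TGGCAAC and 1 held the Sp-type word GGGCGG. The choice of TGGCAAC was added after the data were seen. No paired analysis was possible because there is 1 group. Depth is unknown, and 30000 candidates in each replicate list is a fixed number, which limits what an absent candidate means.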

Other observations

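The strongest peak near a member without a promoter IDR summit was at MED15, a tail subunit gene. The IDR summit lay 573 bp upstream of the MED15 TSS, just beyond the 500 bp used here, and 240 bp from the TSS of CG4297. It had a signal of 72.2 and rank 667 of 1696, and ranked 1552 in replicate 1 and 445 in replicate 2, with the summit at the same base in the pooled list and both replicates. With a distance of 1000 bp MED15 joins the 8 genes.

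Inside the genes, away from their own promoters, no IDR summit was found in any of the 40. Pooled candidates lay there in 10 genes, 13 in all, the best at rank 3788 in MED19, 1942 bp from its TSS. The share of all protein-coding genes with such a summit was not counted, so these counts do not mark a trait of the members.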
